A study of Mus musculus with 2 samples.

Results

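The genes described here encode the protein subunits of the mitochondrial ribosome and the translocases that carry proteins into mitochondria. They were chosen by gene symbol: Mrpl and Mrps genes for the large and small ribosomal subunit, Tomm genes for the translocase of the outer membrane (TOM) and Timm genes for the translocases of the inner membrane (TIM). The rule found 103 of the 55487 genes listed, namely 49 Mrpl, 29 Mrps, 10 Tomm and 15 Timm genes. RNA was sequenced from sorted islet beta cells, the insulin-secreting cells of the pancreas, of mice 2 months old. By its title, the study examined genes that depend on the myelin transcription factors under euglycemia, that is, at normal blood glucose. Both libraries used here were mutant and formed 1 group, with the genotype label MytF/F; Myt2F/F; Myt3F/F; RipCre. That genotype joins floxed alleles of 3 Myt genes with RipCre, a Cre recombinase driven by the rat insulin promoter, so recombination is directed to cells that use that promoter. Both libraries were labelled as pooled males and females, and library 2 carries the word duplicate in its label, which does not say whether other mice were used. A p-value therefore compares the reads of these 2 libraries and does not measure the spread between mice. The libraries also differed in sex-linked and acinar transcripts, as given below. Libraries of control cells were not analysed here, and every value below describes mutant cells alone.

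Mitochondria keep a small genome of their own, and its messenger RNAs are translated by a ribosome whose RNA is mitochondrial and whose proteins are all encoded in the nucleus and imported. Precursors made in the cytosol cross the outer membrane through TOM. They then enter the matrix through the TIM23 complex, or reach the inner membrane through the TIM22 complex with the help of small TIM chaperones of the intermembrane space. Beta cells depend on mitochondrial ATP production to couple glucose to insulin release, which needs respiratory chain subunits from both genomes.

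Library 1 held 50121771 counted reads and library 2 held 39003197, and 13566 genes reached 1 CPM (counts scaled to a common library total) in both. The 3 genes named by the floxed alleles had reads in both libraries: Myt1 stood at 77.6 and 65.4 CPM, Myt1l at 44.5 and 39.0 CPM and St18 at 72.7 and 56.5 CPM, and counts per gene do not show which exons they came from. The label of the cells was checked with 10 beta-cell markers. All 10 were detected, with a summed level of 180874 and 184961 CPM. Alpha-cell markers summed to 939 and 718 CPM and delta-cell markers to 1653 and 1224 CPM. The libraries differed in markers of other kinds. The 11 acinar markers had a summed level of 127 and 585 CPM, 10 of them passed the test between libraries and Amy2a5 was near 0 in both. The 7 interferon-response genes summed to 90.5 and 223 CPM. Both libraries were labelled as pooled males and females, yet Xist, which is transcribed from the inactive X chromosome, stood at 5.01 and 653 CPM. The 4 Y-linked genes were lower in library 2. In bulk RNA, fewer cells of a type and less RNA per cell cannot be told apart.

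Nearly all members were expressed. Of the 103 genes, 98 were detected, meaning 1 CPM or more in both libraries: 48 of 49 large-subunit genes, 29 of 29 small-subunit genes, 8 of 10 TOM genes and 13 of 15 TIM genes. Together the members took 0.186% of the counted reads of library 1 and 0.196% of those of library 2. Levels of different genes were compared as TPM, which divides reads by gene length before scaling to a common total. The median member stood at 16.6 ± 1.27 TPM (SD, n = 2), and the median of the 98 detected members at 18.4 TPM, beside 16.5 TPM over the 12142 protein-coding genes detected. In CPM, with no length scaling, the detected members were lower than those genes, with medians of 15.96 and 28.0 CPM. Subunits of the machines that mitochondrial translation and import serve were higher as a group, since the 98 nuclear-encoded respiratory chain and ATP synthase genes had a median of 54.6 TPM. The 84 cytosolic ribosomal proteins, the counterpart of the mitoribosomal proteins outside mitochondria, had a median of 148.5 TPM.

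Detected members spanned a 53.3-fold range of TPM, with an interquartile range of 11.0 to 30.2 TPM. Over these 98 genes the TPM values of the libraries were ordered alike, with a Spearman correlation of 0.990 across genes, which are not independent replicates. By family, the median was 19.8 ± 0.902 TPM for the large subunit, 13.9 ± 0.947 for the small subunit, 21.3 ± 1.42 for TOM and 12.2 ± 1.11 for TIM (SD, n = 2). On the log2(TPM + 1) scale of mean TPM, the large subunit's median was 0.48 above that of the small subunit, with 0.51 in library 1 and 0.47 in library 2. The median of TOM was 0.76 above that of TIM, but each library alone gave a smaller gap, 0.71 in library 1 and 0.67 in library 2. The SD of the 2 libraries was 0.03 for both gaps. Scaled by the median length of the coding transcripts in place of the merged exons, the gaps came to 0.21 and 0.36, and in CPM, with no length scaling, to 0.24 and 0.74.

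**Figure D1:**
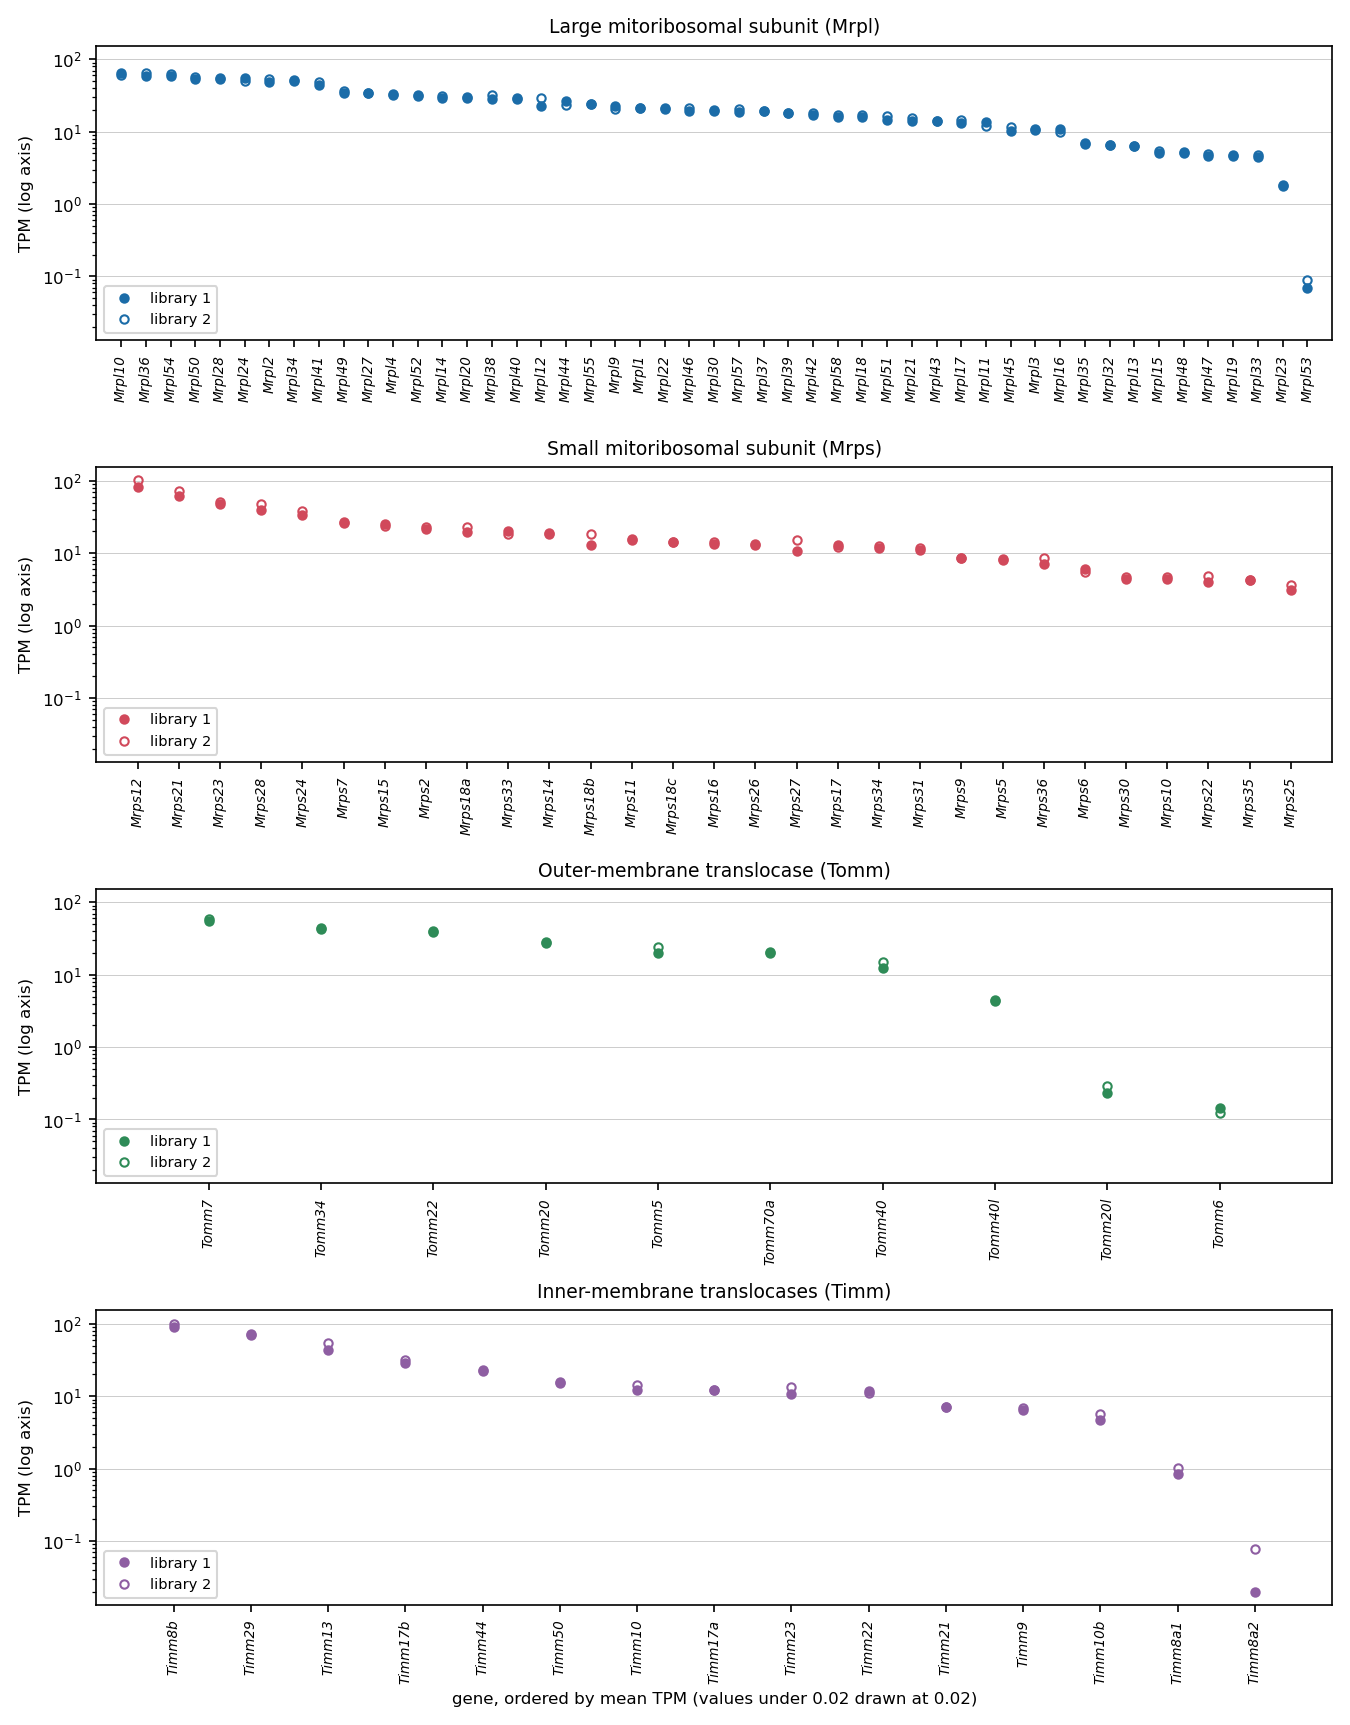
Level of each of the 103 members in TPM (log axis), by family, with genes ordered by their mean from left to right; filled points are library 1 and open points library 2. The open and filled points nearly coincide for most genes, Timm8b and Mrps12 stand highest at means of 95.7 and 91.5 TPM, and 5 genes at the right ends of their panels were not detected.

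In 41 of the 103 members (39.8%), a protein-coding gene on the opposite strand began within 1000 bases of the member's start, and 36 of these neighbours were detected. The share was 10.8% over the 21974 protein-coding genes of the tables and 16.5% over the 12142 detected, beside 40.8% of the 98 detected members, and no test of this difference was made. This window was chosen after values had been seen. Timm8b starts 98 bases from Sdhd, which encodes a membrane anchor of respiratory complex II and stood at 199.5 and 203.3 TPM, above Timm8b at 90.4 and 100.9 TPM. Mrpl36 overlaps the start of Ndufs6, a complex I subunit at 91.4 and 98.3 TPM, beside 59.4 and 64.7 TPM for Mrpl36 itself. Mrps12 starts 172 bases from Sars2, the mitochondrial seryl-tRNA synthetase, but the levels of this pair were far apart, with 81.7 and 101.4 TPM for Mrps12 and 8.76 and 8.79 TPM for Sars2. Mrpl49 starts 59 bases from Fau, which encodes a cytosolic ribosomal protein at 284.7 and 270.3 TPM, against 34.4 and 36.1 TPM for Mrpl49. Mrpl46 and Mrps11, of different subunits, face each other on chromosome 7 with exons that overlap. Mrpl46 stood at 19.1 and 21.5 TPM and Mrps11 at 15.9 and 15.3 TPM, and theirs is the only such pair in which both genes are members. These 41 members made 40 distinct pairs, with neighbours both above and below the member.

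Promoters were read from RefSeq on GRCm38.p6 as the 250 bases before and 50 bases after each annotated start, for 91 of the 103 members matched by symbol. They are shown here because NRF1, ETS factors such as GABP, and YY1 are textbook regulators of nuclear genes for mitochondria. Each motif was searched on both strands, and a gene was counted once however many matches or starts it had. The NRF1 letters GCGCANGCG occurred in 19 of 91 members (20.9%), beside 15.6% of 9729 detected protein-coding genes and 7.03% of all 27025 genes in the table. The ETS letters CCGGAAG occurred in 35 members (38.5%), beside 20.2% and 9.93%. The YY1 letters AAGATGGCG occurred in 9 members (9.89%), beside 3.68% and 1.64%. At least 1 of these 3 motifs was present in 54 members (59.3%), beside 34.4% of the detected genes. The letters TATAAA were present in 7 members (7.69%), beside 8.38% of the detected genes. The median level was 20.8 TPM with the NRF1 letters and 15.6 without, 15.8 with the ETS letters and 19.0 without, and 17.6 with the YY1 letters and 17.3 without.

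The promoters of the 2 members with the highest TPM, Timm8b (chr9:50603651-50603950, plus strand) and Mrps12 (chr7:28741772-28742071, minus strand), are printed with those of the 2 members that differed most between the libraries, Mrps27 (chr13:99344536-99344835, plus strand) and Mrps18b (chr17:35916391-35916690, minus strand). Capitals mark matches to the 3 motifs: ETS then NRF1 in Timm8b, ETS in Mrps12, ETS then YY1 in Mrps27, and NRF1 then ETS in Mrps18b. No marked matches overlap each other.
Timm8b: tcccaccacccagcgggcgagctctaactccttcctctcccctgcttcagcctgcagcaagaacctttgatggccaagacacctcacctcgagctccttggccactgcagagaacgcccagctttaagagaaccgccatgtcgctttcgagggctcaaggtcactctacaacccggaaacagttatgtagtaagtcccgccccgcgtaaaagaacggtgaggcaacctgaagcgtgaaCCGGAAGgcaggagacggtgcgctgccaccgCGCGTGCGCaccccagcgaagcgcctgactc
Mrps12: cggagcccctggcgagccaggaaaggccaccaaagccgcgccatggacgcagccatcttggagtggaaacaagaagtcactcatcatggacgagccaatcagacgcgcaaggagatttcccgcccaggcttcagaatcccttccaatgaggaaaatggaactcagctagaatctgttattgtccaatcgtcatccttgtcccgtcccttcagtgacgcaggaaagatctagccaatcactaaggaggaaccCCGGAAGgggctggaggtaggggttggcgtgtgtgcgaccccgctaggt
Mrps27: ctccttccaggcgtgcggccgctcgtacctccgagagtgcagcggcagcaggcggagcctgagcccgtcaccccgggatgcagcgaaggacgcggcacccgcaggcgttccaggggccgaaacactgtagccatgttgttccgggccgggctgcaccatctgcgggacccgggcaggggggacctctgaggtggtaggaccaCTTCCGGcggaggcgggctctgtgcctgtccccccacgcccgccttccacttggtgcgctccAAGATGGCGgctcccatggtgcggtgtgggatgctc
Mrps18b: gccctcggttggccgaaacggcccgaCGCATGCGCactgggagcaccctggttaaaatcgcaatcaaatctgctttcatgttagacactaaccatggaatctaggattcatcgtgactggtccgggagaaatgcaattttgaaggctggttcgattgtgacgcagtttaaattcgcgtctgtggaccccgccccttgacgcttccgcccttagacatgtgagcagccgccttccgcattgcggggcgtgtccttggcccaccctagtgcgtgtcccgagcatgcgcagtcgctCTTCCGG
A match describes these letters and does not show binding. The 4 promoters differ in which motifs they hold and in where these lie, and no promoter of the 91 members searched holds all 3 of them.

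The large subunit was led by Mrpl10, which anchors the stalk that binds translation factors. It stood at 64.3 TPM in library 1 and 61.0 TPM in library 2. Mrpl36, a small zinc-binding protein kept from bacteria, and Mrpl54, a mitochondria-specific protein, followed at 59.4 and 64.7 TPM and at 59.8 and 61.9 TPM. Mrpl50 stood at 53.7 and 57.5 TPM and Mrpl28 at 53.6 and 54.8 TPM. Mrpl10, Mrpl36 and Mrpl54 changed places between the libraries, so their order lay within the spread. At the other end, Mrpl23, which lies by the exit of the nascent chain tunnel, had the lowest TPM of the detected members, 1.83 and 1.76, though not with coding length. Of its 50-base words, 11.8% recur in other genes, most often in Mrpl23-ps1. The 163 and 123 reads of Mrpl23 place it at 3.25 CPM (95% exact Clopper-Pearson interval 2.77 to 3.79) and 3.15 CPM (2.62 to 3.76), so it lay below every other detected Mrpl gene in both libraries. Mrpl33 at 4.49 and 4.71 TPM, Mrpl19 at 4.66 and 4.71 TPM, Mrpl47 at 4.65 and 4.88 TPM and Mrpl48 at 5.27 and 5.12 TPM came next. Exons of other genes on the opposite strand cover 36% of the exon bases of Mrpl19 and 24.2% of those of Mrpl47. The effect of this on their counts was not tested. The 30 large-subunit proteins with a bacterial counterpart had a median of 20.3 TPM and the 19 mitochondria-specific ones 19.7 TPM, and both the highest and the lowest detected member belonged to the first kind.

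Small-subunit genes covered a wider range at the top. Mrps12, a protein of the decoding centre, stood at 81.7 and 101.4 TPM, and Mrps21, also kept from bacteria, at 62.0 and 73.3 TPM. Mrps23, a mitochondria-specific protein, stood at 47.7 and 51.0 TPM. Mrps28 was at 39.0 and 47.3 TPM and Mrps24, a protein of the messenger RNA entry region, at 34.1 and 38.0 TPM. All 5 were higher in library 2, and their order was the same in both libraries. The lowest was Mrps25 at 3.14 and 3.61 TPM. Of its exon bases, 69.8% lie in exons of Nr2c2 on the opposite strand, which was counted with 2490 and 1727 reads. The part of shared reads in either count was not tested. Mrps25 was followed by Mrps35 at 4.32 and 4.22 TPM, Mrps22 at 4.04 and 4.78 TPM, Mrps10 at 4.39 and 4.74 TPM and Mrps30 at 4.39 and 4.77 TPM, whose order changed between libraries. The 16 proteins classed as having a bacterial counterpart had a median of 17.1 TPM and the 12 classed as mitochondria-specific 12.5 TPM. Mrps18a and Mrps18b were counted among the 12, though both are S18 homologs, and so was Mrps30. Symbols and structure do not match throughout: Mrps18a and Mrps30 sit in the large subunit of the assembled ribosome, and Mrps36, at 7.16 and 8.71 TPM, is now assigned to the 2-oxoglutarate dehydrogenase complex. With these moved, the medians were 19.8 TPM over 51 large-subunit genes and 14.2 TPM over 26 small-subunit genes.

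In the TOM complex the receptors were well expressed. Tomm22, the central receptor that holds the complex together, stood at 40.6 and 39.0 TPM. Tomm20, which recognises cleavable presequences, stood at 28.5 and 27.1 TPM, and Tomm70a, a receptor for carrier precursors brought by chaperones, at 20.5 and 20.2 TPM. By merged exons the order Tomm22, Tomm20, Tomm70a was the same in both libraries. Tomm40, the beta-barrel channel, was lower at 12.4 and 15.1 TPM, and its paralog Tomm40l lower still at 4.31 and 4.53 TPM. Of the small subunits that stabilise the channel, Tomm7 was the highest TOM gene at 54.6 and 59.5 TPM and Tomm5 stood at 20.1 and 24.5 TPM. Tomm34, a cytosolic co-chaperone of import, stood at 43.2 and 44.1 TPM. These orders turned with length. With coding length the means were 163 for Tomm20, 45.8 for Tomm22, 31.1 for Tomm7, 21.4 for Tomm40 and 18.2 for Tomm70a. The coding length used for Tomm20 was only 458 bases beside 4906 bases of merged exons, so its value of 163 is uncertain. By reads the receptor order was the opposite, with means of 72.6 CPM for Tomm70a, 49.8 for Tomm20 and 24.0 for Tomm22. Tomm40l shares 64.3% of its exon bases with Nr1i3 on the opposite strand. Nr1i3 was counted with 7 and 6 reads and Tomm40l with 403 and 333, and the part of shared reads in either count was not tested.

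Genes of the TIM23 complex, which serves precursors bound for the matrix, had a median of 13.9 TPM. The channel gene Timm23 stood at 10.6 and 13.6 TPM. Its partners Timm17b and Timm17a, alternative subunits of the complex, stood at 28.8 and 31.5 TPM and at 12.1 and 12.3 TPM. Timm44, which tethers the import motor, was at 22.1 and 22.8 TPM, the receptor Timm50 at 16.0 and 15.4 TPM and Timm21, which links the complex to TOM, at 7.21 and 7.07 TPM. By this measure Timm17b was the highest of the complex and Timm21 the lowest in both libraries, but the order turned with length. With coding length Timm44 (24.7 and 25.4) stood above Timm17b (16.9 and 18.3). By reads Timm17a was highest at 34.7 and 35.6 CPM and Timm23 lowest at 6.88 and 8.95 CPM. Of the exon sequence of Timm23, 57.5% recurs in other genes, most often in Gm10273, which had 0 reads in both libraries. The effect of this on the counts of Timm23 was not tested. Of the TIM22 complex, which inserts carrier proteins, Timm29 stood at 70.9 and 73.6 TPM and the channel gene Timm22 at 11.9 and 11.2 TPM, so its 2 genes did not overlap. By reads alone Timm29 was the most abundant member of all, at 81.6 and 85.7 CPM.

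The small TIM chaperones, which escort hydrophobic precursors between the membranes, spanned 18.4-fold in TPM and 6.25-fold in CPM among the 5 that were detected. Timm8b led all 103 members at 90.4 and 100.9 TPM, and Timm13, the usual partner of the Timm8 proteins, stood at 43.1 and 54.9 TPM. This order turned with length: Timm13 was above Timm8b by reads, with means of 24.5 and 18.1 CPM, and with coding length, with means of 67.6 and 52.2. Timm10 and Timm9, partners in the most common small TIM complex, stood at 12.1 and 14.3 TPM and at 6.52 and 6.86 TPM. Timm10b, which docks this complex onto TIM22, stood at 4.71 and 5.69 TPM. Timm8a1, the X-linked paralog of Timm8b, was under the detection level with 22 and 21 reads, or 0.439 CPM (exact interval 0.275 to 0.664) and 0.538 CPM (0.333 to 0.823). Of its exon sequence, 41.0% in 50-base words recurs in the pseudogene Gm9797, which had 0 reads in both libraries. Timm8a2 had 0 reads in library 1, where the floor of 3 reads allows up to 0.0599 CPM, and 1 read in library 2.

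The other members not detected were Mrpl53, Tomm6 and Tomm20l. Mrpl53 had 1 read in each library, yet 88.0% of its exon bases lie in exons of other genes, chiefly Gm42688 on the same strand, which had 44 and 30 reads. Tomm6, a small TOM subunit, had 3 and 2 reads, and 84.2% of its exon bases overlap other genes, among them Gm21981 with 5 and 6 reads and Tomm6os with 54 and 35. A read that fits 2 genes is left out by some counting settings, and the setting used is not given in the sources used here, so the level of Mrpl53 and Tomm6 in these cells cannot be read from the counts. Tomm20l, a paralog of Tomm20, had 3 reads in each library with no such overlap above 10% of its exon bases. In all, 31 of the 103 members shared more than 10% of their exon bases or 50-base words with another gene. Without them the median of the members was 19.0 TPM.

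Ratios between related genes were then compared inside each library, with each gene's reads set against the share its merged exon length gives (exact two-sided binomial test, Benjamini-Hochberg over 34 tests). Of 17 pairs, 14 passed in the same direction in both libraries. Timm17b exceeded Timm17a 2.38-fold and 2.56-fold, and Timm8b exceeded Timm8a1 104-fold and 95.6-fold. Tomm40 exceeded Tomm40l 2.87-fold (95% interval 2.56 to 3.23) and 3.32-fold (2.94 to 3.78). Tomm20 exceeded Tomm20l 107-fold (42.6 to 604) and 79.9-fold (31.9 to 453), a wide interval set by 3 reads of Tomm20l. In each of these paralog pairs 1 gene carried most of the length-scaled reads, and the direction of the last 3 pairs was the same with no length scaling and with coding transcript length. The pair of Timm17 genes kept its direction with coding length, but by reads alone Timm17a was the higher.

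Among partners in 1 complex, Timm44 exceeded Timm50 1.38-fold and 1.48-fold, and Mrpl12, the stalk protein that is bound in several copies per ribosome, stood at 0.351 and 0.473 of its anchor Mrpl10. Timm23 and Timm17a did not differ in the same direction in both libraries, with ratios of 0.879 and 1.11, nor did Timm22 and Timm23, with 1.12 and 0.821. Both pairs passed under the other scalings. The log2 ratio of Timm23 over Timm17a was -2.16 with no length scaling and 1.07 with coding length, so its direction turned with length. The log2 ratio of Timm22 over Timm23 was 0.78 and 0.83. Both pairs hold Timm23, much of whose exon sequence recurs in other genes, and the effect of this on the ratios was not tested. Of the 3 S18 homologs, which occupy different places in the ribosome, Mrps18a exceeded Mrps18b 1.498-fold and 1.23-fold and Mrps18c 1.36-fold and 1.56-fold. These sizes depended on length: the mean log2 ratio of Mrps18a over Mrps18b was 0.44 with merged exons, 1.26 with no length scaling and 1.63 with coding length, and over Mrps18c it was 0.54, 2.32 and 2.36. Mrps18b and Mrps18c had ratios of 0.908 and 1.27 and did not pass in both, but passed at log2 ratios of 1.06 with no length scaling and 0.73 with coding length. Several other ratios turned with the length used. Timm10 exceeded Timm10b 2.57-fold and 2.52-fold and Timm9 stood at 0.539 and 0.479 of Timm10, but with coding transcript length both directions were the opposite. Tomm20 stood at 0.702 and 0.695 of Tomm22 by merged exons and above it by coding length, which is uncertain for Tomm20. Tomm34 exceeded Tomm70a 2.11-fold and 2.18-fold, and Tomm70a stood at 0.718 and 0.744 of Tomm20, and both reversed with no length scaling only.

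**Figure D2:**
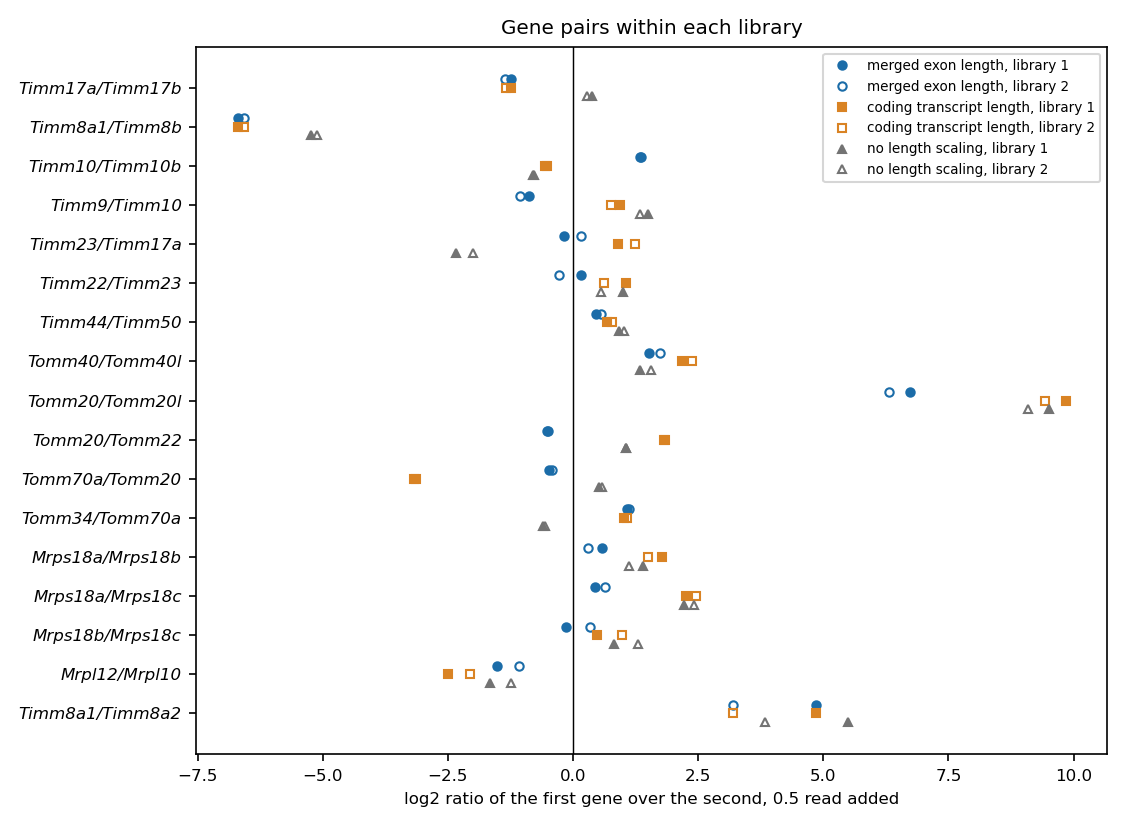
Log2 ratio of the first gene over the second for 17 pairs, with circles for merged exon length, squares for coding transcript length and triangles for no length scaling; filled symbols are library 1 and open symbols library 2. Timm8a1/Timm8b, Tomm40/Tomm40l and Tomm20/Tomm20l lie on the same side of 0 with all 3 scalings, while Timm10/Timm10b, Timm9/Timm10 and Tomm20/Tomm22 cross it.

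Length weighed on the order of the members. Across the 98 detected members, merged exon length and TPM had a Spearman correlation of -0.68, against -0.18 over the 12142 detected protein-coding genes, while length and CPM had 0.18 and 0.28. All these points share the same libraries, and TPM holds the length as its divisor. In CPM, members spanned 26.1-fold, less than in TPM. For 20 of 98 members the merged exons were over 3 times as long as the median coding transcript, and up to 15.3 times in Mrpl33. Scaled by coding transcripts, Mrpl33 moved from rank 91 to rank 21 of the members and Tomm20 from rank 30 to rank 1, while Timm8b moved from rank 1 to rank 13. Rank 1 of Tomm20 rests on a coding length of 458 bases beside 4906 bases of merged exons and is uncertain. Mrps12 was at rank 2 by merged exons and rank 3 by coding length, and Mrpl10 at rank 5 and rank 2. At the low end, the merged exons of Mrpl23 were 7.06 times its coding transcript, and it moved from rank 98 to rank 86, above Mrpl19 and Mrpl47.

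**Figure D3:**
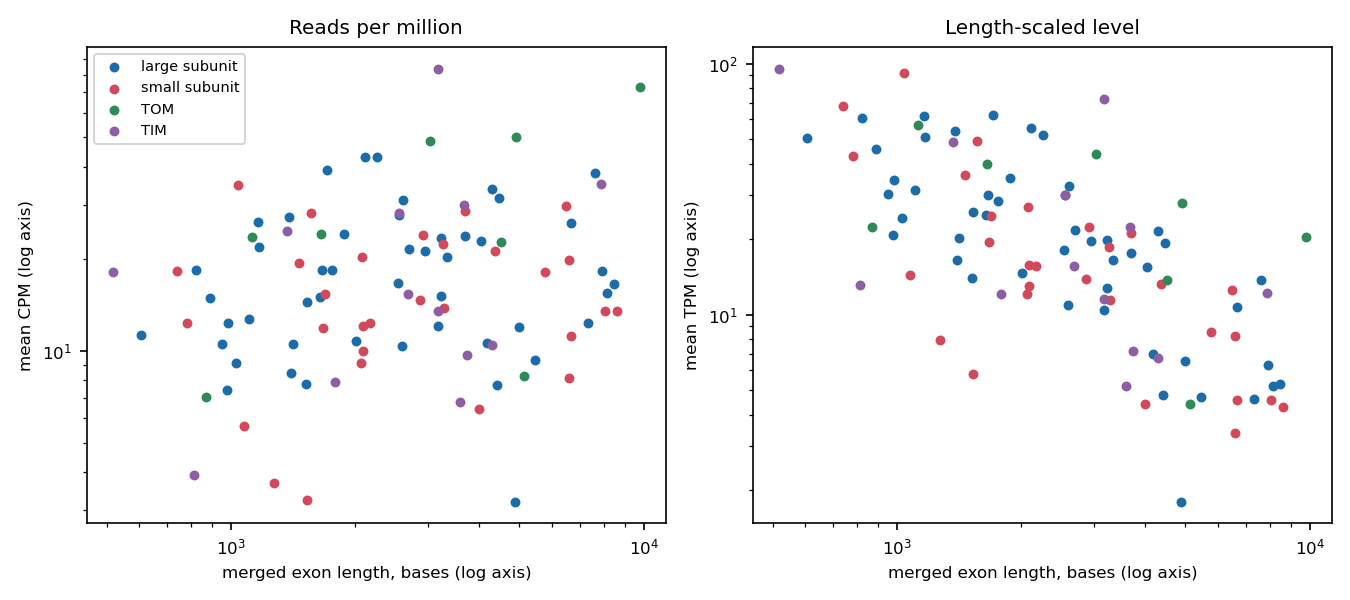
Mean CPM (left) and mean TPM (right) of the 98 detected members against merged exon length in bases, all on log axes, coloured by family. Points fall with length in the TPM panel (Spearman -0.68) and show little slope in the CPM panel (0.18).

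Between the libraries no tested member differed by 2-fold or more. None of the 99 members with 10 or more reads summed reached an adjusted p under 0.05 together with a 2-fold difference (exact two-sided binomial test, Benjamini-Hochberg over 20681 genes), against 892 of all 20681 genes tested (4.31%). None reached it with 1.5-fold either (8.05% of all genes). With the adjusted p alone, 19 members were higher in library 2 (13.4% of all genes) and 1 was lower (19.0% of all genes). Log2 ratios are given as library 2 over library 1. Their median was 0.08 over the members, with 73 of 99 above 0, beside -0.03 over all detected genes. Log2 ratios of the detected members had an SD of 0.135, against 0.397 over the 9213 genes between 3.20 and 83.6 CPM, their range. In that range 1.90% of genes passed with 2-fold. The interquartile ranges were closer, from -0.005 to 0.148 for the detected members and from -0.168 to 0.102 for those genes. Respiratory chain and ATP synthase genes were like the members, with a median of 0.08, an SD of 0.150 and 72 of 90 above 0. With the adjusted p alone, 34 of these 90 were higher and 3 lower.

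Mrps27, a small-subunit protein of the pentatricopeptide repeat family, differed most. Its level was 8.14 CPM (exact interval 7.37 to 8.97) in library 1 and 11.8 CPM (10.8 to 12.9) in library 2, a log2 ratio of 0.54 (adjusted p = 3.93e-07, exact binomial test). Mrps18b followed at 9.96 CPM (9.10 to 10.9) and 14.1 CPM (12.9 to 15.3), a log2 ratio of 0.50 (adjusted p = 1.93e-07, exact binomial test). The intervals did not overlap for either gene. Both share exon bases with an antisense gene, 24.2% with 6430562O15Rik and 30.5% with Gm16279, and these genes had log2 ratios of 0.67 and 0.58. Strand-aware counting is not stated in the sources used here, so reads from a gene and its antisense partner cannot be told apart. The partners facing their promoters moved less, with log2 ratios of 0.20 for Ptcd2 beside Mrps27 and -0.06 for Ppp1r10 beside Mrps18b.

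Of the import genes, Timm23 stood at 6.88 and 8.95 CPM (log2 ratio 0.38, adjusted p = 0.0027, exact binomial test). As given above, 57.5% of the exon sequence of Timm23 recurs in other genes, and the part of this in its ratio was not tested. Timm13 stood at 21.4 and 27.7 CPM (0.37). Tomm40 stood at 20.3 and 24.97 CPM and Tomm5 at 6.34 and 7.79 CPM, both with a log2 ratio of 0.30. Timm8b, Timm17b and Timm10b also passed with the adjusted p alone, at log2 ratios of 0.18, 0.14 and 0.29. The TOM receptors did not: Tomm20, Tomm22 and Tomm70a had log2 ratios of -0.06, -0.04 and -0.0049. Among ribosomal genes, Mrpl12 stood at 12.5 and 16.2 CPM (0.37) and Mrps12 at 30.8 and 38.7 CPM (0.33). The other members that were higher were Mrpl50, Mrpl51, Mrpl17 and Mrpl38 of the large subunit and Mrps24, Mrps18a, Mrps21 and Mrps28 of the small subunit, with log2 ratios from 0.12 to 0.30. The 1 member that was lower in library 2 was Mrpl24, at 44.7 and 41.3 CPM (log2 ratio -0.12). Of its exon bases, 26.3% lie in exons of Rrnad1 on the opposite strand, whose part in this ratio was not tested. The lowest ratios of all, -0.15 for Mrpl16, -0.14 for Mrpl11, -0.13 for Mrpl44 and Mrps6 and -0.12 for Mrps33, did not pass the test. By family, 5 of 48 tested large-subunit, 7 of 29 small-subunit, 2 of 8 TOM and 5 of 14 TIM genes were higher, against 13.4% of all genes, and no difference between families was tested. These shifts lie beside the larger ones of the acinar markers (median log2 ratio 2.24) and the interferon-response genes (1.34), whose part in them was not tested. Scaled by TMM factors or DESeq2 size factors, which move all genes up by 0.04, 26 and 27 members were higher (17.4% and 17.5% of all genes) and 0 lower, so the call of Mrpl24 was lost under both.

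**Figure D4:**
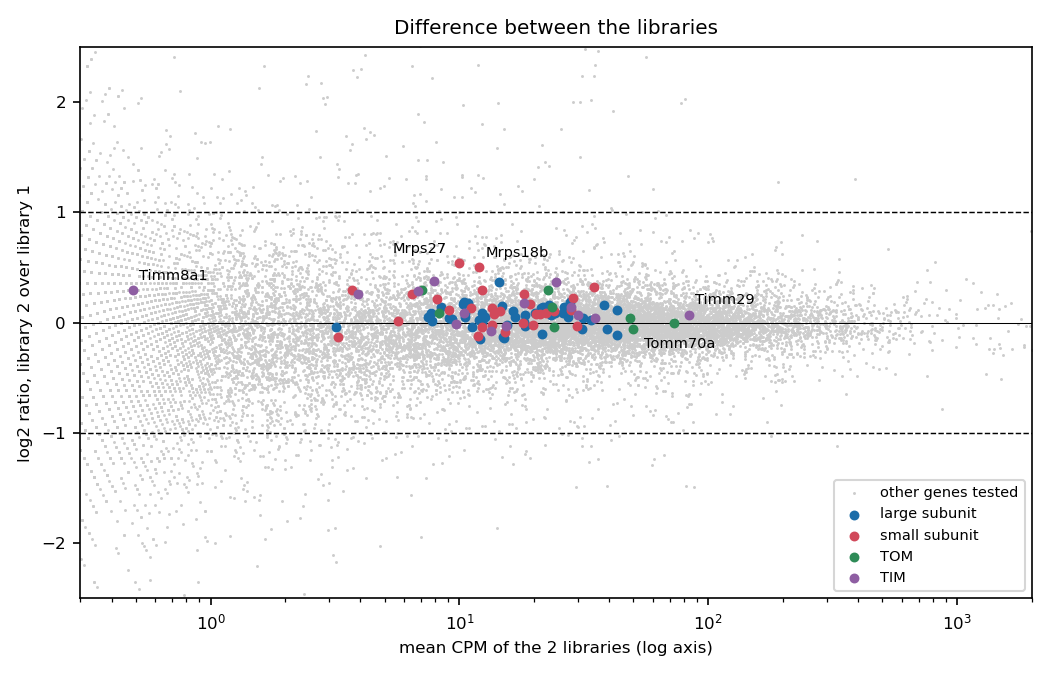
Log2 ratio of library 2 over library 1 against mean CPM (log axis) for the genes tested, with members in colour by family, other genes in grey and dashed lines at 2-fold. Every tested member lies between the dashed lines, from -0.15 for Mrpl16 to 0.54 for Mrps27.

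Genes of the same pathways outside the symbol rule were counted from lists drawn up with earlier results of these data known. The 6 further mitoribosome proteins were all detected, with a median of 21.1 TPM, from Aurkaip1 at 46.5 and 46.4 TPM to Ptcd3 at 11.1 and 11.7 TPM, and 0 of 6 passed the adjusted p in either direction. All counts of these lists stand beside 13.4% of all genes higher and 19.0% lower by that rule. The mitochondrial ribosomal RNAs stood at 212 and 265 TPM for mt-Rnr2 and 214 and 254 TPM for mt-Rnr1, and both were higher in library 2, with log2 ratios of 0.34 and 0.27. How ribosomal RNA was handled before library construction is not given in the sources used here. Genes that assemble the mitoribosome were lower in TPM than its subunits, with a median of 9.13 TPM over 16 genes, all detected. In CPM the medians were closer, at 12.7 for the assembly genes, 15.2 for both subunits together and 13.8 for the small subunit. The helicase Dhx30 led the assembly genes at 20.3 and 20.2 TPM and Mterf4 was lowest at 4.35 and 4.34 TPM. Of the 16, 2 passed as higher and 0 as lower. The 11 translation factors had a median of 11.7 TPM, from the elongation factor Tufm at 21.99 and 24.2 TPM to the release factor Mtrf1 at 4.40 and 4.43 TPM, with 2 higher and 2 lower.

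The 24 further import genes had a median of 20.3 TPM, and 23 were detected. Mtch1, an outer-membrane protein related to the insertase Mtch2, was highest at 130 and 138 TPM, followed by the import motor Hspa9 at 110 and 133 TPM. Agk, which is also a subunit of TIM22, was the lowest detected at 1.58 and 1.37 TPM, and the peptidase Immp2l was just under the detection level at 0.918 and 0.923 CPM. Of these, 6 were higher in library 2 by the adjusted p and 2 lower. Of the 6 genes of mitochondrial transcription and its messenger RNA, 5 were detected, with Lrpprc highest at 26.8 and 29.5 TPM, Tfb2m lowest of those detected at 8.19 and 8.54 TPM, and 1 higher and 0 lower. Slirp, the binding partner of Lrpprc, was counted at only 0.0998 and 0.0513 CPM. Exon overlap with other genes was checked for members only, so whether this count gives the level of Slirp was not tested. The 9 regulators were all detected, with Yy1 highest at 49.5 and 47.7 TPM, Nrf1 at 6.53 and 6.12 TPM and Gabpa at 24.7 and 23.2 TPM. The coactivator Ppargc1a was the lowest at 0.459 and 1.11 TPM, and it was the only gene of these pathway lists past 2-fold between libraries, from 1.10 to 2.69 CPM (log2 ratio 1.29, adjusted p = 3.52e-07, exact binomial test). With the adjusted p alone, 2 of the 9 were higher, Ppargc1a and Pprc1 (log2 ratio 0.31), and 1 was lower, Myc (-0.37).

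**Figure D5:**
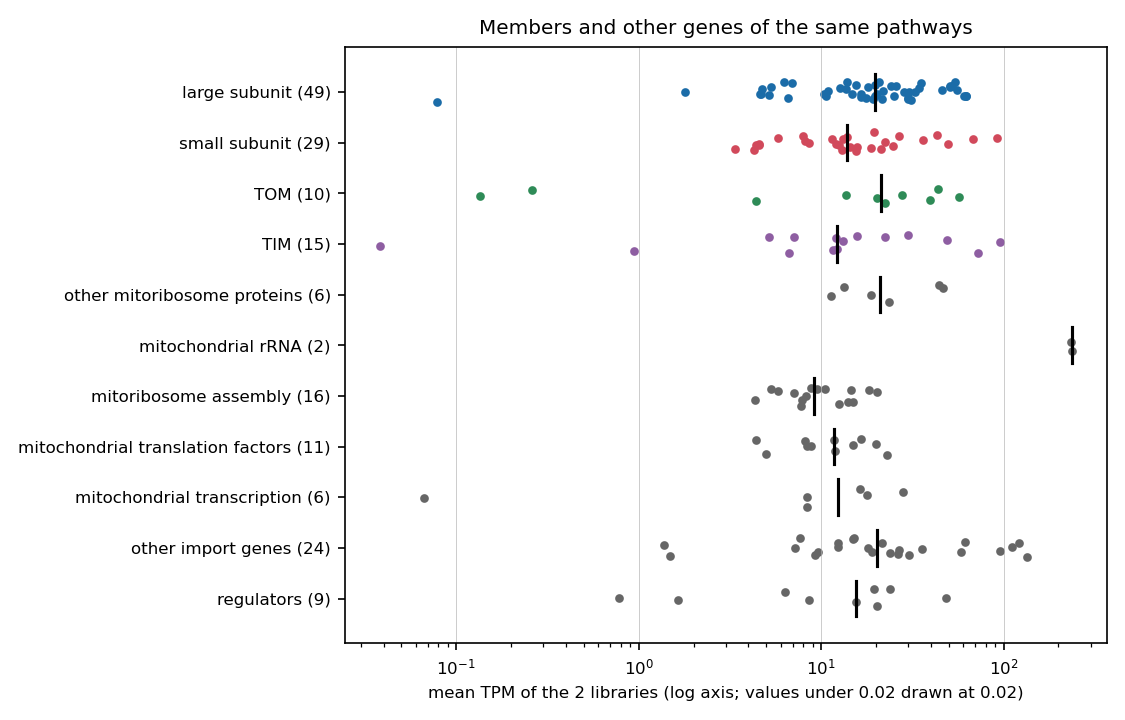
Mean TPM of the 2 libraries (log axis) for each member by family, in colour, and for the other genes of the same pathways, in grey, with the number of genes in brackets and a bar at the median of each list. The mitochondrial ribosomal RNAs stand apart at a median of 236 TPM, and the assembly genes have the lowest median at 9.13 TPM.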

How the data were processed

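RNA sequencing of 2 libraries of sorted beta cells, 1 group, was analysed. The deposited tables list 55487 genes with raw read counts, TPM and CPM, per the file headers. The authors' counts were made with cutadapt 2.10, STAR 2.7.8a, featureCounts 2.0.2 and GRCm38.p6, per the submitters' processing notes. Annotation, strandedness and the treatment of ambiguous reads: not given in the sources used here. CPM as deposited is the count over the library total. The length that the deposited TPM implies lay within 1% of merged GENCODE M21 exons in 98.35% of 16229 genes and in all 99 members checked.

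Members and lists were chosen with earlier results of these data known. All 103 symbols had 1 identifier each. Each gene with 10 or more reads summed entered an exact binomial test (two-sided) of its reads against both library totals, Benjamini-Hochberg adjusted over 20681 genes, with 0.5 read added to ratios. This compares reads of 2 libraries, and with 1 group no quasi-likelihood test of edgeR could be made. Intervals are 95% exact Clopper-Pearson, and they and floors (3 reads, 0.0599 and 0.0769 CPM) cover counting error only. Scripts were tested on simulated data. Named genes were every TOM and TIM member, the 5 highest and 5 lowest of each ribosomal subunit by TPM, members not detected, the 5 largest ratios in each direction, members of the pairs, and the highest, lowest and undetected genes of other lists. Genes outside that rule were named after their values were seen. Software was Python 3.11.15 with scipy 1.17.1, pandas 2.3.3 and R 4.3.3 with edgeR 4.0.16 (TMM factors) and DESeq2 1.42.0 (size factors). Alternatives were other scalings, filters, added reads, lengths and single libraries. Coordinates are GRCm38, and promoters come from RefSeq (GRCm38.p6). The marker lists covered beta, alpha, delta, PP, acinar, ductal, endothelial, mesenchymal and immune cells, interferon response and sex. Ductal markers summed to 846 and 1184 CPM, endothelial to 26.3 and 18.6, mesenchymal to 12.9 and 8.64 and immune to 52.1 and 44.1 CPM, and the PP-cell hormone Ppy stood at 632 and 879 CPM.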

Additional observations from a re-analysis of the deposited data

How the results depend on the processing

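No paired analysis was possible because there is 1 group and the labels give no replicate numbers. Of the alternative values computed, 87 were labelled the same, 21 moved, 9 were pair ratios that passed where they had not, and 9 were called pair ratios that reversed. The same meant within 1.5-fold for counts, within the error of the main value for medians and gaps, and an unchanged call for pairs. Pairs not called were never labelled reversed, though Timm23/Timm17a, Timm22/Timm23 and Mrps18b/Mrps18c changed direction between the libraries. The count of 98 detected members held with either library alone, and the 14 pairs called came to 15 and 16 with 1 library and to 17 both without length scaling and with coding length. The members' median of 16.6 TPM came to 15.3 in CPM, 18.4 over detected members, 19.0 without members that share reads, 17.96 with coding transcript length, and 16.2 to 17.96 with 1 library. In CPM the medians of the large subunit, TOM and TIM were 16.5, 23.0 and 13.4. With coding length those of the small subunit, TOM and TIM were 17.2, 19.8 and 15.2. TOM came to 25.1 over detected members and also without sharing members, and TIM to 12.1 to 13.6 with 1 library. The gap between subunits (log2) was 0.24 in CPM, 0.21 with coding length and 0.47 to 0.51 with 1 library, and that of TOM over TIM 0.36 with coding length and 0.67 to 0.71 with 1 library. With the adjusted p alone, 20 members differed between libraries. Ratios that reversed (log2) were, without length scaling, Timm17a/Timm17b at 0.32, Timm10/Timm10b at -0.79, Timm9/Timm10 at 1.42, Tomm20/Tomm22 at 1.05, Tomm70a/Tomm20 at 0.54 and Tomm34/Tomm70a at -0.58, and, with coding length, Timm10/Timm10b at -0.54, Timm9/Timm10 at 0.85 and Tomm20/Tomm22 at 1.83. These reversals come from the length each scaling divides by. Coding length, adjusted p alone and the ratio between libraries without sharing members were chosen after seeing the data. Depth limits members under about 20 reads, such as Timm8a2, Mrpl53, Tomm6 and Tomm20l.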
